A study of Mus musculus with 4 samples.

Results

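The genes that build N-glycans and glycosylphosphatidylinositol (GPI) anchors were followed in mouse pachytene spermatocytes with and without BMH21. Members were taken by gene symbol: the Alg, Pig, Pgap, Ssr, Stt3, Rpn and Mgat families, some further oligosaccharyltransferase subunits, the dolichol-phosphate-mannose synthase and the first enzymes that act on a transferred glycan. Some subunits of these enzymes, such as Tmem258, Krtcap2 and Gpaa1, fall outside the rule and were read with the surrounding genes. The rule found 66 of 15733 listed protein-coding genes, of which 3 are X-linked (Alg13, Piga and Ssr4) and 63 autosomal. The rule itself reads symbols and no measured value. The BMH21 group was 2 samples of mouse testicular cells kept ex vivo for 12 h with 2.5 µM BMH21, a DNA-intercalating inhibitor of RNA polymerase I, and the mock group was 2 samples given DMSO. Pachytene spermatocytes were sorted after the treatment on the DNA dye Hoechst, and their mRNA was sequenced. The sources used here give neither strain nor age of the mice.

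N-glycosylation begins on the membrane of the endoplasmic reticulum, where a chain of enzymes assembles a branched sugar on the lipid dolichol. Oligosaccharyltransferase then moves the whole sugar onto asparagines of proteins that are entering the lumen, and glucosidases and Golgi transferases trim and rebuild it. GPI anchors are built in the same membrane on phosphatidylinositol, by the Pig gene products, and a transamidase attaches the finished anchor to a protein's carboxyl end. Many surface proteins of spermatocytes and sperm carry such glycans or anchors. In pachytene cells the X chromosome is transcriptionally silenced, so X-linked members of these pathways are normally little expressed at this stage.

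Depth ran from 30964370 to 41548269 counts per library. Chi-square per degree of freedom between replicates was 3.21 in mock and 3.71 in BMH21, so no library was a copy of another within sampling noise. The summed level of 11 listed pachytene markers was 2171 to 2226 CPM in the 4 libraries, where CPM are counts scaled to a common library size. Sycp1, Sycp3 and Hormad1 rose and Piwil1, Ccna1 and Pou5f2 fell among them. Spermatid markers summed to 324 and 319 CPM in mock and 335 and 336 CPM in BMH21. Spermatogonial markers summed to 17.3 and 18.9 CPM in mock and 13.5 and 16.2 CPM in BMH21, and 2 of 6 listed fell (Kit and Zbtb16). Listed Sertoli, Leydig, macrophage and peritubular markers each summed to under 10 CPM in every library, between 0.918 and 9.54 CPM. The Leydig marker Star fell, from 9.01 and 8.93 to 6.07 and 6.61 CPM. Of the markers chosen, those listed were 11 of 12 pachytene, 8 of 8 spermatid, 6 of 7 spermatogonial and 2 of 6 Sertoli markers. They also held 3 of 5 Leydig, 3 of 4 macrophage and 3 of 3 peritubular markers. Every listed gene had counts in at least 1 library, so a marker at 0 throughout could not appear. The part of these cell types in the results below was not tested. In sorted bulk samples, fewer cells of a type and less RNA per cell cannot be told apart.

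Of the 66 genes, 65 passed the filter on low counts, and Alg14 did not. After BMH21, 16 rose, 5 fell and 44 were not called (quasi-likelihood test of edgeR, called at an adjusted p under 0.05 by Benjamini-Hochberg over all genes tested). That is 32.3% called, beside 29.1% of all 13793 tested genes, of which 16.5% rose and 12.5% fell. All 3 X-linked members rose, as did 73.2% of X-linked genes tested. On the autosomes 13 of 62 tested members rose (21.0%) and 5 fell (8.06%), 29.0% in all, beside 15.1% higher, 12.8% lower and 27.9% in all for autosomal genes. The shares are near the background. Counting only calls whose log2 size was 0.5 or more, 4 autosomal members rose and 3 fell, 7 in all, beside 8.73% of autosomal genes in either direction. Autosomal members had a median log2 fold change of 0.04 (quartiles -0.11 and 0.18), beside -0.01 (quartiles -0.18 and 0.16) for all autosomal genes tested. The median size of the change was 0.13 in the members and 0.17 in all autosomal genes. Upper quartile scaling gave 13 higher and 8 lower members, and over all genes 42.1% of calls were higher under it, beside 56.9% with the scaling used here.

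**Figure D1:**
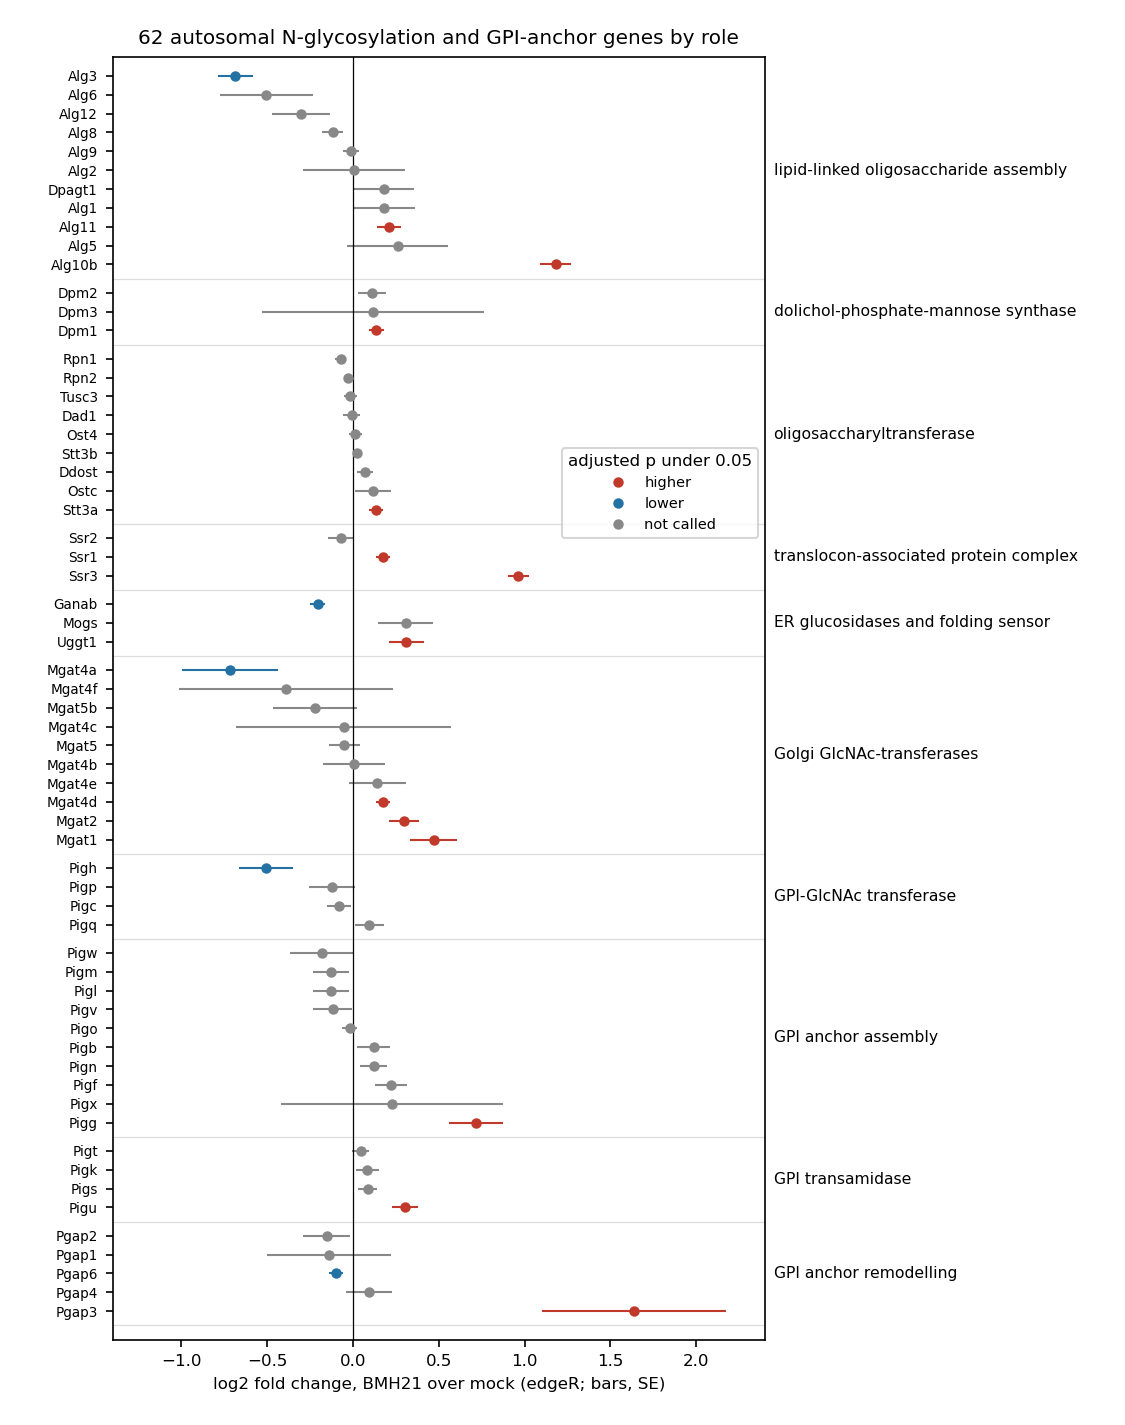
Log2 fold change of BMH21 over mock (horizontal axis) for the 62 autosomal members tested, one point per gene with its standard error (SE), grouped by role and coloured by call at an adjusted p under 0.05. Most points lie near 0, Alg10b, Ssr3 and the weakly expressed Pgap3 lie farthest to the right, and Alg3 and Mgat4a farthest to the left.

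The 3 X-linked members went from low levels in mock to levels among those of the autosomal members. Per kilobase of exon, Alg13 stood above 12 of 62 autosomal members in mock and above 56 in BMH21, Piga above 11 and 47, and Ssr4 above 0 and 27. Alg13 encodes the catalytic subunit of the enzyme that adds the second GlcNAc to dolichol. It was at 6.44 and 8.74 CPM in the mock libraries and at 367 and 372 CPM in the BMH21 libraries. The groups lay far apart. The replicates lay close together in BMH21 (369 ± 3.45 CPM) and less so in mock (7.59 ± 1.63 CPM, SD, n = 2 each). Its log2 fold change was 5.63, with an adjusted p of 8.34e-68 in edgeR, and 5.40 to 5.84 with any 1 library left out. Among the 343 X-linked genes tested, Alg13 ranked 9 by CPM per kilobase in BMH21 and 91 by fold change.

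Piga encodes the catalytic subunit of the enzyme that starts GPI synthesis by moving GlcNAc onto phosphatidylinositol. Its level was 3.31 and 4.42 CPM in mock and 129 and 131 CPM in BMH21, again with no overlap. The log2 fold change was 5.10 (edgeR adjusted p = 1.32e-55), 4.88 to 5.29 with any 1 library left out. Ssr4 encodes the delta subunit of the translocon-associated protein (TRAP) complex, which sits beside the protein-conducting channel and oligosaccharyltransferase. It had 3 and 0 counts in the mock libraries, the latter allowing up to 0.0960 CPM, and 333 and 300 counts in BMH21, which is 10.1 and 8.10 CPM. The ratio of the summed counts per scaled library was 220.1, with an exact 95% interval of 75.0 to 1070.2 that covers counting error only. The edgeR adjusted p was 1.52e-26. Beside all X-linked genes tested, whose log2 fold changes had a median of 4.19 and quartiles of 0.96 and 5.70, Alg13 and Piga lay between the median and the upper quartile and Ssr4 above it. X-linked genes low in mock passed the filter more readily if they rose. Ssr4, with 3 and 0 counts in mock, passed only through its BMH21 counts. Its call and its place among X-linked genes are thus not independent of the rise. SEs from this fit are too small for rises of this size and are not given for these 3 genes. Their adjusted p-values come from the same test statistic, and their size is to be read with that limit. With the replicate number as a block, the edgeR adjusted p was 4.60e-20 for Alg13, 7.12e-18 for Piga and 1.69e-10 for Ssr4. Alg13 lies at chrX:144317804-144374450, Piga at chrX:164419787-164433916 and Ssr4 at chrX:73787028-73790830 (GENCODE M21, GRCm38), and no other gene of that annotation overlaps their exons.

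The 250 bases before the RefSeq start of these 3 genes are shown because the genes rose together, on the forward strand of GRCm38.p6, at chrX:144317716-144317965, chrX:164419530-164419779 and chrX:73786773-73787022. Capitals mark a match to any of 7 motifs, searched on both strands. They are the core AGGCCT of the factor ZFX, the box CCAAT of the factor NF-Y, the GC box GGGCGG, the letters CCGGAAG bound by ETS factors, the letters AAGATGGC bound by YY1, the cyclic AMP element TGACGTCA, and the TATA letters TATAAA. For Alg13 the GENCODE gene begins inside this window, which holds its first 162 bases.
Alg13: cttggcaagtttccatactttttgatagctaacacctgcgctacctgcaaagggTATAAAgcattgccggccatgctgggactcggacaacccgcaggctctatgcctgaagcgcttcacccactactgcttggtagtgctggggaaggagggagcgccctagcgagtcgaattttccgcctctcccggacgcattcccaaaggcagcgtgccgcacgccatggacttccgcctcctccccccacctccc
Piga: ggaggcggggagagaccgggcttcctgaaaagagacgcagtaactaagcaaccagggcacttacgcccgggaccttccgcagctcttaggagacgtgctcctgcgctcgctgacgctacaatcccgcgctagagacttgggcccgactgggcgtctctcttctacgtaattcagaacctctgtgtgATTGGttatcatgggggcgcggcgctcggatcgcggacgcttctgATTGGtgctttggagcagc
Ssr4: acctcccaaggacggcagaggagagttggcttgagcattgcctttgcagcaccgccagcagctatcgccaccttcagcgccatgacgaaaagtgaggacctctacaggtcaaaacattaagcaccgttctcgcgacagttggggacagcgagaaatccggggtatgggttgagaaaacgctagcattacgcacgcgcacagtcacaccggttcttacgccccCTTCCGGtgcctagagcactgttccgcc
The 3 windows held no motif in common. Alg13 had TATAAA, which begins 196 bases before the RefSeq start and is found in 12.4% of 32851 such windows in the table. These letters lie before the GENCODE start and nearer to it than to the RefSeq start. Piga had 2 CCAAT matches, beginning 64 and 19 bases before the start, in a motif that 33.8% of windows hold. Ssr4 had the ETS letters 28 bases before the start, which 6.91% of windows hold. Their GC content was 59.2%, 60.0% and 57.2%, beside a median of 52.4% over all windows, and they held 15, 22 and 18 CpG dinucleotides, beside a median of 6. The letters AGGCCT were in none of the 3 windows, in 8 of the 56 members with a window, and in 8.70% of all windows. A member counts if any of its windows holds the motif, and the 56 members had 74 windows. Counts of members therefore run higher than shares of single windows would.

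**Figure D2:**
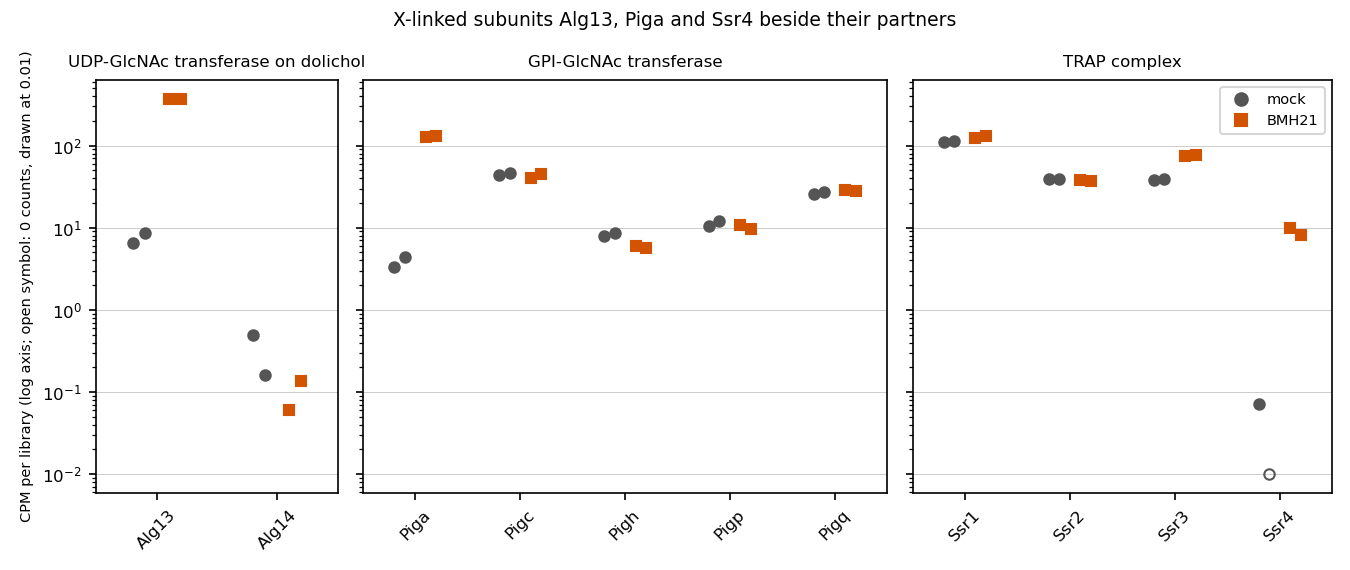
CPM in each library (vertical log axis) for Alg13, Piga and Ssr4 and their partner subunits among the members, with mock libraries as grey circles and BMH21 libraries as orange squares, and the mock library with 0 counts of Ssr4 as an open circle at 0.01. The X-linked subunits rise steeply. Among the partners Ssr1 and Ssr3 rose, Pigh fell, Pigc, Pigp, Pigq and Ssr2 were not called, and Alg14 was not tested.

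Of 8 autosomal members grouped with these 3 proteins as partner subunits, Ssr1 and Ssr3 rose, Pigh fell, and the remaining 5 were not called or not tested. For comparison, 15.1% of autosomal genes tested rose and 12.8% fell. Alg14, which anchors Alg13 to the membrane, had 21 and 5 counts in mock and 2 and 5 in BMH21, or 0.501 and 0.160 CPM against 0.0604 and 0.135 CPM. These counts were too few for the test. Per kilobase of exon, Alg13 went from 1.11 ± 0.238 to 53.9 ± 0.503 CPM (SD, n = 2 each), and Alg14 was at 0.132 ± 0.0962 and 0.0390 ± 0.0211 CPM. Of the 4 autosomal members grouped under the GPI-GlcNAc transferase, Pigh fell and 3 were not called. Pigh was at 7.91 and 8.64 CPM in mock and 6.01 and 5.64 CPM in BMH21, so its groups did not overlap. Its log2 fold change was -0.50 ± 0.16 (SE), edgeR adjusted p = 0.0103. The call was lost in DESeq2 (adjusted p = 0.0554), without mock replicate 2 (-0.44) and without BMH21 replicate 2 (-0.46). Exons of Plekhh1 on the opposite strand overlap 992 bases of Pigh, and the sources used here do not say whether the counting used strand. Pigc (-0.08), Pigp (-0.12) and Pigq (0.09) were not called. Pigyl, a further gene of GPI synthesis outside the members, was not called either (-0.10 ± 0.11 (SE)). Per kilobase, Piga was the lowest of the 5 members in this group in mock, at 0.605 ± 0.122 CPM, and the highest of them in BMH21, at 20.4 ± 0.297 CPM (SD, n = 2 each). Pigc, the highest of the 5 in mock, was at 10.7 ± 0.355 and 10.1 ± 0.696 CPM per kilobase.

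In the TRAP complex 3 of 4 subunits rose, the X-linked Ssr4 and the autosomal Ssr3 and Ssr1. Beside them, 15.1% of autosomal and 73.2% of X-linked genes tested rose. With so few subunits, no result about the complex as a whole is read from these calls. Ssr3, the gamma subunit, was at 38.3 and 38.8 CPM in mock and 74.1 and 76.0 CPM in BMH21. This was a 1.95-fold rise, 0.96 ± 0.06 (SE) on the log2 scale (edgeR adjusted p = 1.37e-21), and it kept its call under all 11 alternative settings. Ssr1, the alpha subunit, rose from 112 and 113 to 123 and 131 CPM (0.18 ± 0.04 (SE), edgeR adjusted p = 8.39e-04). Ssr2, the beta subunit, was at 38.9 and 39.5 CPM in mock and 38.1 and 36.6 CPM in BMH21 (-0.07 ± 0.07 (SE), edgeR adjusted p = 0.546). The BMH21 libraries were thus the higher ones for Ssr1 and Ssr3 and the lower ones for Ssr2. Even after its rise, Ssr4 was the lowest of the 4 per kilobase, at 2.93 ± 0.447 CPM, beside 12.2 ± 0.496 for Ssr1, 20.0 ± 0.568 for Ssr2 and 18.0 ± 0.319 for Ssr3 (SD, n = 2).

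Assembly of the dolichol-linked sugar had 12 tested genes, of which 3 rose, Alg3 fell and 8 were not called. On the autosomes 18.2% of its tested genes rose and 9.09% fell, near the 15.1% and 12.8% of all autosomal genes tested. The largest autosomal rise in this group was that of Alg10b, the glucosyltransferase that adds the last glucose (chr15:90224311-90233471). Alg10b was at 17.9 and 15.5 CPM in mock and 37.5 and 38.5 CPM in BMH21, with wide space between the groups. That is 2.27-fold, 1.18 ± 0.09 (SE) on the log2 scale (edgeR adjusted p = 3.45e-18), and every alternative setting called it. Alg6 and Alg8, which add the glucoses before it, were not called, at -0.50 ± 0.27 and -0.12 ± 0.06 (SE). Alg6 passed the test without mock replicate 1 (-0.93) and read 0.05 without mock replicate 2. Alg8 passed without BMH21 replicate 1 (-0.25) and under upper quartile scaling (-0.16), and read 0.00145 without BMH21 replicate 2. Alg5, which makes the glucose donor, was at 0.26 ± 0.29 (SE) and was not called.

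Mannose is added by a different set of Alg enzymes. Alg3, the first mannosyltransferase on the lumenal side (chr16:20605374-20611735), was at 21.5 and 23.7 CPM in mock and 13.6 and 14.4 CPM in BMH21. It fell 1.61-fold, which is -0.68 ± 0.10 (SE) on the log2 scale (edgeR adjusted p = 1.42e-07), and no alternative setting ended the call. Exons of Eef1akmt4 and of Gm49333 on the opposite strand overlap 143 and 126 of its exon bases. Alg9 and Alg12, which act after Alg3, were not called (-0.01 ± 0.05 and -0.30 ± 0.17 (SE)). Alg11, a mannosyltransferase of the cytosolic side, rose from 39.8 and 41.0 to 46.4 and 47.0 CPM (0.21 ± 0.07 (SE), edgeR adjusted p = 0.0144). Alg11 lost its call without mock replicate 1 (0.19), without BMH21 replicate 2 (0.20) and under upper quartile scaling (0.17). Dpagt1, which starts the chain (0.18 ± 0.17), Alg1 (0.18 ± 0.18) and Alg2 (0.01 ± 0.30, all SE) were not called.

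The upstream windows of Alg10b (chr15:90224061-90224310, forward strand) and Ssr3 (chr3:65392554-65392803, reverse strand) are shown as those of the autosomal members with the smallest p, with the same motifs in capitals. For Ssr3, too, the GENCODE gene begins inside the window, which holds its first 70 bases.
Alg10b: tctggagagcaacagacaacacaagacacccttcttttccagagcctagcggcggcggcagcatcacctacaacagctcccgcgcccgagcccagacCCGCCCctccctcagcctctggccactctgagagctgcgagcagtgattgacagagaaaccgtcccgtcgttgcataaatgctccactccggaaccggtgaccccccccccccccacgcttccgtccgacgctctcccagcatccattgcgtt
Ssr3: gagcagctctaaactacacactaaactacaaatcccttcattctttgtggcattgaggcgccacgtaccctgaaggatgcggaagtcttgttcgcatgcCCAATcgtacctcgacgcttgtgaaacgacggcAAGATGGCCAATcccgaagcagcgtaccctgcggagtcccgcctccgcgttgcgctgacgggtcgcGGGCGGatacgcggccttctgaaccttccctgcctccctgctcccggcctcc
Alg10b had 1 GC box. Ssr3 had 1 GC box, 2 CCAAT matches and the YY1 letters, the last overlapping a CCAAT match. GC boxes were found in 37 of 56 members with a window and in 32.7% of all windows. The YY1 letters were in 3 members (Alg12, Rpn1 and Ssr3) and in 1.56% of all windows, and the ETS letters in 15 members and 6.91% of all windows. CCAAT was in 24 of the 56 members. Here, too, members are counted over any of their windows, and the shares are of single windows.

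Dolichol-phosphate-mannose synthase makes the mannose donor used by both pathways. Dpm1, its catalytic subunit, was at 108 and 108 CPM in mock and 118 and 120 CPM in BMH21. It rose by 0.14 ± 0.04 (SE) on the log2 scale (edgeR adjusted p = 0.0110), but lost its call under upper quartile scaling (0.09) and when mock replicate 1 (0.14), mock replicate 2 (0.14) or BMH21 replicate 2 (0.12) was left out. A predicted gene on the same strand, Gm20716, overlaps 895 exon bases of Dpm1. Dpm2 (0.11 ± 0.08 (SE)) was not called. Dpm3, with 10 to 24 counts a library, was not called (0.12 ± 0.65 (SE)), and its 95% interval ran from -1.15 to 1.39 on the log2 scale.

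Oligosaccharyltransferase held the members with the highest levels per kilobase and had the narrowest range of log2 fold changes among role groups of more than 5 genes. Of its 9 members, all tested, Stt3a rose and 8 were not called, and their log2 fold changes lay between -0.07 and 0.13. That is 11.1% of these members called, beside 27.9% of autosomal genes tested. Tmem258 (0.09 ± 0.07) and Krtcap2 (0.19 ± 0.15, both SE), further subunits outside the members, were not called. Among the members, DESeq2 also called Stt3a alone. Upper quartile scaling called Rpn1 (-0.12) and Rpn2 (-0.07) lower and no member of this group higher, and a stricter filter called Rpn1 (-0.07) lower beside Stt3a. Stt3a, the catalytic subunit that works during translation, was at 139 and 146 CPM in mock and 150.1 and 161 CPM in BMH21 (0.13 ± 0.04 (SE), edgeR adjusted p = 0.00645). Its call was lost without mock replicate 1 (0.10), without BMH21 replicate 2 (0.08) and under upper quartile scaling (0.09). Stt3b, the catalytic subunit that also works after translation, was at 1374 and 1404 CPM in mock and 1403 and 1421 CPM in BMH21. Its log2 fold change was 0.02 ± 0.02 (SE), with an edgeR adjusted p of 0.428, and read -0.02 under upper quartile scaling. Tusc3, the oxidoreductase partner of Stt3b, was at 179 and 171 CPM in mock and 171 and 175 CPM in BMH21 (-0.02 ± 0.04 (SE), edgeR adjusted p = 0.822). Magt1, the X-linked paralog of Tusc3, was not analysed here. Rpn1 (-0.07 ± 0.03), Rpn2 (-0.03 ± 0.02), Ddost (0.07 ± 0.04), Dad1 (-0.01 ± 0.05), Ostc (0.12 ± 0.10) and Ost4 (0.01 ± 0.04, all SE) were not called. Exons of Agbl5 on the opposite strand overlap 677 bases of Ost4.

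Once transferred, the glycan is trimmed by 2 glucosidases. Ganab, the catalytic subunit of glucosidase II, fell, from 131 and 128 CPM in mock to 115 and 109 CPM in BMH21 (-0.21 ± 0.04 (SE), edgeR adjusted p = 8.84e-05), and did so under every alternative setting. Mogs, glucosidase I, was at 5.41 and 7.30 CPM in mock and 7.67 and 7.94 CPM in BMH21 (0.31 ± 0.16 (SE), edgeR adjusted p = 0.156), and passed the test without mock replicate 2 (0.53). Uggt1, the sensor that puts glucose back on misfolded glycoproteins, rose from 18.2 and 15.4 to 22.1 and 19.9 CPM (0.31 ± 0.10 (SE), edgeR adjusted p = 0.0152). That call was lost in DESeq2 (adjusted p = 0.0785), without mock replicate 2 (0.20) and without BMH21 replicate 1 (0.23).

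Among the 10 Golgi GlcNAc-transferases, which build branches on the trimmed glycan, 3 rose and 1 fell. The shares over autosomal genes tested were 15.1% higher and 12.8% lower. Mgat4d, known as an inhibitor of Mgat1 in the testis, rose from 137 and 134 to 147 and 158 CPM (0.17 ± 0.04 (SE), edgeR adjusted p = 3.91e-04), and kept its call in every alternative setting. Mgat1, which adds the first branch, rose from 8.34 and 8.29 to 12.1 and 11.0 CPM (0.47 ± 0.14 (SE), edgeR adjusted p = 0.00492). Mgat2, which adds the second, rose from 23.7 and 24.3 to 31.1 and 27.9 CPM (0.30 ± 0.09 (SE), edgeR adjusted p = 0.00583). Inhibitor and enzyme thus rose together, and the groups of all 3 did not overlap, as held for 36 of 62 autosomal members and 60.2% of autosomal genes tested. Mgat1 (0.40) and Mgat2 (0.22) lost their calls without BMH21 replicate 1. Mgat4a, a branching enzyme, fell from 2.84 and 3.01 to 2.08 and 1.48 CPM (-0.71 ± 0.28 (SE), edgeR adjusted p = 0.0459). Its call was lost in DESeq2 (adjusted p = 0.155), with the replicate number as a block (adjusted p = 0.0631) and when mock replicate 1 (-0.76), mock replicate 2 (-0.67) or BMH21 replicate 2 (-0.49) was left out. Mgat4b, Mgat4c, Mgat4e, Mgat4f, Mgat5 and Mgat5b were not called, with log2 fold changes from -0.39 (Mgat4f) to 0.14 (Mgat4e). Mgat4c and Mgat4f were under 1 CPM in both groups.

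In the later steps of GPI synthesis, 1 of 10 assembly enzymes was called, beside 27.9% of autosomal genes tested. It was Pigg, which adds ethanolamine phosphate to the second mannose (chr5:108312609-108349355), and it rose. Pigg was at 5.89 and 5.12 CPM in mock and 8.91 and 9.26 CPM in BMH21, which is 0.72 ± 0.16 (SE) on the log2 scale (edgeR adjusted p = 1.78e-04), and all alternative settings called it. A transcript model of uncertain kind on the opposite strand, Gm43081, overlaps 141 of its exon bases. The other 9 (Pigb, Pigf, Pigl, Pigm, Pign, Pigo, Pigv, Pigw and Pigx) had log2 fold changes from -0.18 (Pigw) to 0.23 (Pigx). Pigf, at 0.22 ± 0.09 (SE), had an edgeR adjusted p of 0.0652.

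Of the 4 members that are subunits of the GPI transamidase, Pigu rose, from 31.7 and 30.3 to 38.3 and 38.4 CPM (0.30 ± 0.08 (SE), edgeR adjusted p = 0.00121). It passed the test under every alternative setting. Pigk, the catalytic subunit (0.08 ± 0.07), Pigs (0.09 ± 0.05) and Pigt (0.05 ± 0.05, all SE) were not called. The call of 1 in 4 members is near the 27.9% of autosomal genes called. Gpaa1, a further subunit outside the members, was tested and not called (0.02 ± 0.15 (SE)). After attachment the anchor is remodelled by Pgap enzymes. Pgap3, which acts on the anchor's lipid in the Golgi, had 16 and 13 counts in mock and 54 and 32 counts in BMH21, or 0.381 and 0.416 CPM against 1.63 and 0.864 CPM. It rose by 1.63 ± 0.54 (SE) on the log2 scale (edgeR adjusted p = 0.0147), and lost its call without mock replicate 1 (1.57) or BMH21 replicate 1 (1.11). Pgap6, a GPI-directed phospholipase, fell from 160 and 154 to 150.5 and 143 CPM (-0.10 ± 0.04 (SE), edgeR adjusted p = 0.0466). Its call was lost in DESeq2 (adjusted p = 0.132), with scaling on autosomal genes alone (adjusted p = 0.0582) and when mock replicate 1 (-0.07), mock replicate 2 (-0.12) or BMH21 replicate 2 (-0.07) was left out. Pgap1 (-0.14 ± 0.36), Pgap2 (-0.15 ± 0.14) and Pgap4 (0.09 ± 0.14, all SE) were not called.

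**Figure D3:**
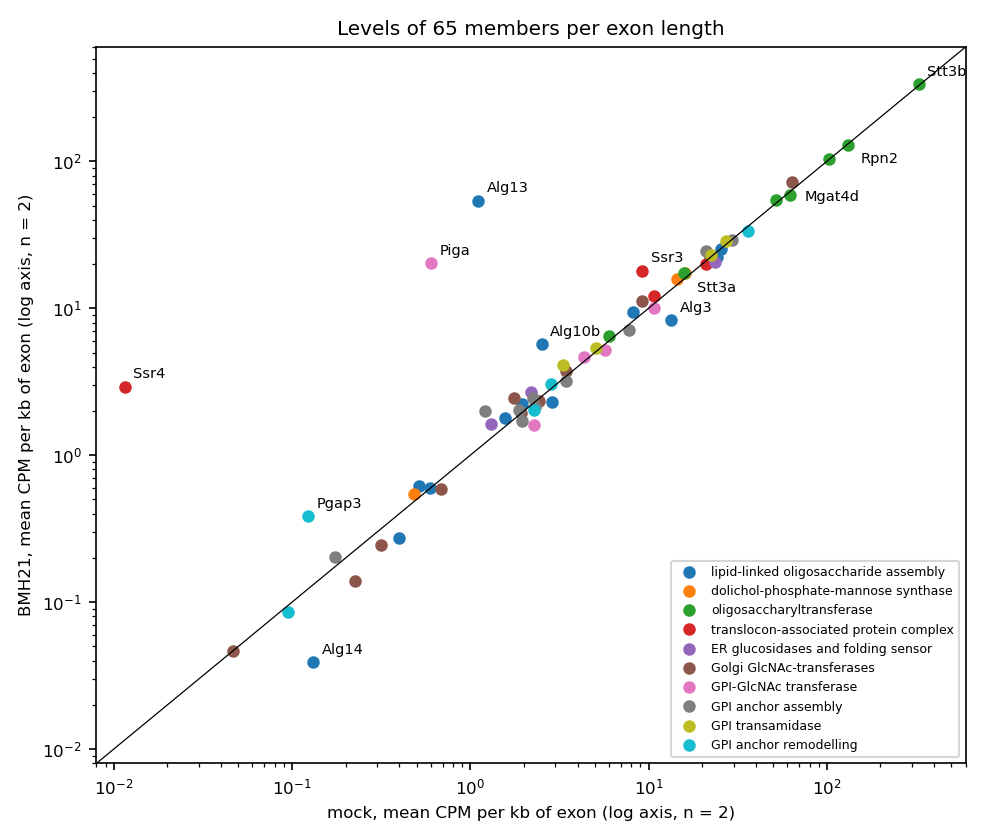
Mean CPM per kilobase of exon in mock (horizontal log axis) and in BMH21 (vertical log axis) for the 65 members with a known exon length, one point per gene coloured by role, with a line where both are equal. Stt3b is the highest in both groups, and Alg13, Piga and Ssr4 stand above the line.

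Levels per kilobase of exon spread widely within each complex. Stt3b, at 329 CPM per kilobase in mock, was the highest oligosaccharyltransferase member with a known exon length, followed by Rpn2 (132), Ost4 (103), Rpn1 (61.9), Ddost (52.1), Dad1 (22.2), Stt3a (15.9) and Ostc (5.97). Each of these neighbours differed by more than the spread between replicates. Tusc3, without an exon length, and Tmem258 and Krtcap2, outside the members, are not placed in this order. Exon length was the union over all annotated transcripts, so genes with many transcript models are placed too low. Alg9 (25.6) and Alg8 (24.2) were the highest in dolichol-linked sugar assembly and Alg14 (0.132) the lowest. Ganab (23.7) stood above Uggt1 (1.31), and Dpm2 (16.1) above Dpm3 (0.485). In the Golgi Mgat4d (64.0) was far above Mgat1 (1.76), and Mgat4c (0.0469) was the lowest. Pigo (29.4) was the highest assembly enzyme for GPI and Pigx (0.174) the lowest. Pigs (27.0) led the transamidase members and Pigu (3.32) was the lowest of them. Pgap6 (36.0) led the remodelling enzymes and Pgap1 (0.0956) was at their lower end. Ssr2 (21.0) led the TRAP complex, where Ssr4 was at 0.0115.

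Genes around these pathways were read from 6 lists, in which 17 genes rose and 8 fell. Over all genes tested, 29.1% were called and the median log2 fold change was -0.000285. Of 6 genes for dolichol supply, 1 rose and 1 fell, with a median log2 fold change of -0.08. Dolk, which phosphorylates dolichol, rose from 2.79 and 2.88 to 5.01 and 5.67 CPM (0.92 ± 0.21 (SE), edgeR adjusted p = 3.07e-04). Dhdds, a subunit of the enzyme that makes the dolichol chain, fell (-0.24 ± 0.07 (SE)), a call lost without mock replicate 2 (-0.21) or BMH21 replicate 2 (-0.20). Of 15 genes for sugar nucleotide supply 6 rose and 3 fell (60.0% called, median -0.03). Ugp2, which makes UDP-glucose, rose from 23.8 and 25.5 to 42.3 and 41.8 CPM (0.77 ± 0.08 (SE), edgeR adjusted p = 1.08e-12). Uap1, which makes UDP-GlcNAc, rose by 0.55 ± 0.11 (SE) and Ugdh, which oxidises UDP-glucose, from 0.143 and 0.256 to 1.24 and 1.16 CPM. Gmppb, which makes the mannose donor GDP-mannose, fell from 26.4 and 27.2 to 20.8 and 18.4 CPM (-0.45 ± 0.09 (SE), edgeR adjusted p = 7.31e-05).

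The lectin chaperones bind glucose-tipped glycans during folding, and their list also holds mannose-trimming enzymes. Of 13 tested, 7 rose and 1 fell (61.5% called, beside 29.1% of all genes tested, median 0.10). DESeq2 called 6 higher and 1 lower. The median size of the change was 0.15, beside 0.18 over all genes tested. Listed genes of this group had a median of 8.75 CPM per kilobase in mock, beside 2.06 for all listed genes. Small changes are called more readily at high counts, and the part of this in the share called was not tested. Canx, calnexin, rose from 338 and 340 to 482 and 495 CPM (0.53 ± 0.03 (SE), edgeR adjusted p = 1.95e-26). Calr, calreticulin, rose by 0.15 ± 0.02 and Uggt2, the paralog of Uggt1, by 0.29 ± 0.05 (SE). Edem3, a mannosidase that marks glycoproteins for degradation, fell from 13.7 and 13.5 to 7.16 and 6.40 CPM (2.01-fold lower, edgeR adjusted p = 8.84e-09). Of 12 later Golgi enzymes tested 1 rose and 2 fell (median -0.00179). The galactosyltransferase B4galt5 rose (0.74 ± 0.10 (SE)), and its relatives B4galt1 (-0.71 ± 0.11) and B4galt3 (-0.99 ± 0.21, both SE) fell. Of 5 further subunits and helpers of oligosaccharyltransferase and of GPI synthesis, Arv1, a lipid transport protein needed for GPI synthesis, rose (0.28 ± 0.09 (SE)) and 4 were not called. Arv1 lost its call in DESeq2 (adjusted p = 0.0542), without mock replicate 2 (0.24) and without BMH21 replicate 1 (0.27) or 2 (0.28). Of 20 tested genes for GPI-anchored proteins of germ cells 1 rose and 1 fell (median -0.05), the prion protein gene Prnp (0.61 ± 0.20 (SE)) and the sperm protease gene Prss21 (-0.19 ± 0.04 (SE)). Prnp lost its call in DESeq2 (adjusted p = 0.0775), without mock replicate 1 (0.62) or 2 (0.60) and without BMH21 replicate 1 (0.48). Tex101, a GPI-anchored germ cell protein, was at 88.9 and 88.1 CPM in mock and 86.4 and 93.7 CPM in BMH21 and was not called.

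**Figure D4:**
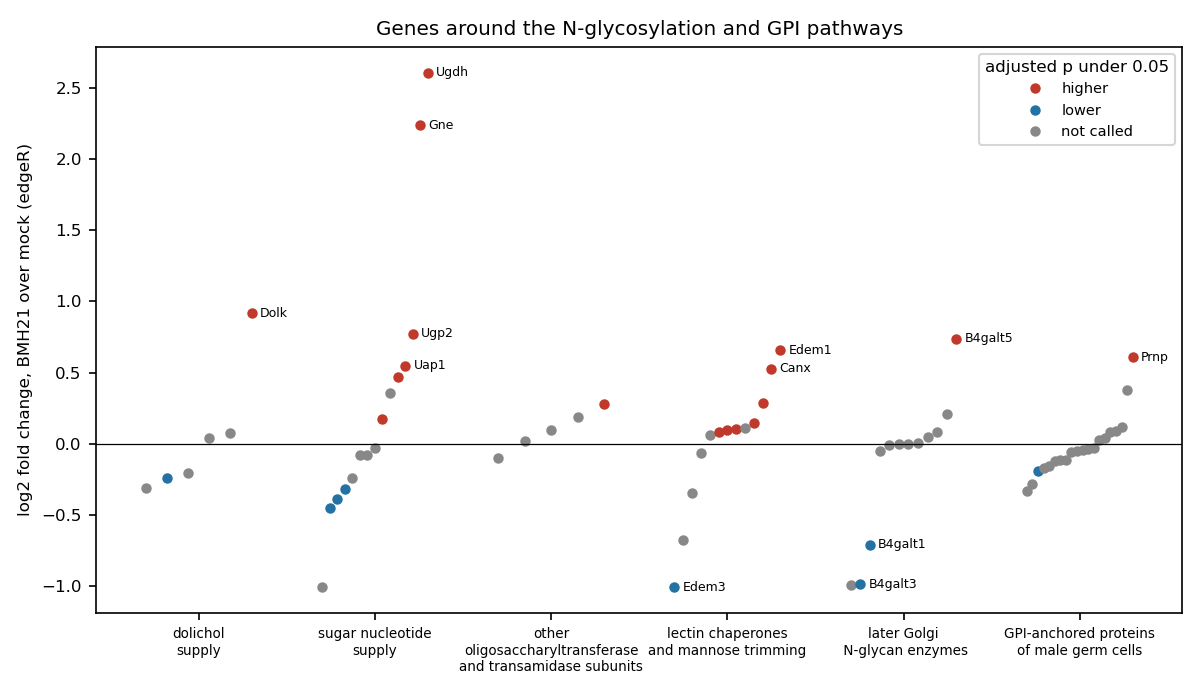
Log2 fold change of BMH21 over mock (vertical axis) for the tested genes of the 6 surrounding lists, one point per gene ordered by value within its list and coloured by call, with called genes of at least 0.5 in size named. Ugdh, a gene of low counts, lies highest and Edem3 lowest, and the GPI-anchored proteins lie near 0.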

How the data were processed

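Per the submitters' processing notes, the tools were fastp, STAR, SAMtools, featureCounts and DESeq2 on the build mm10 (order, versions and settings not stated). The authors deposited raw read counts per gene, which entered every test. Also deposited were size-factor-normalized values (signal), log2 fold changes, their standard errors and Wald statistic (each a score), and p-values, raw and adjusted, made by the authors per the file headers. These were not used. Gene positions in the table differ from GENCODE M21 (GRCm38) for all but 369 of 15670 genes matched by identifier. Positions, exon lengths and overlaps were therefore taken from GENCODE M21 by identifier, for 65 of 66 members (not Tusc3). Overlaps and levels per kilobase may thus not match the exons on which reads were counted. Sequences are from RefSeq (GRCm38.p6), which gave an upstream window for 56 members.

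Counts were tested in R 4.3.3 with edgeR 4.0.16: filterByExpr (minimum count 10), TMM scaling, quasi-likelihood fit with group alone, Benjamini-Hochberg adjustment over 13793 genes. CPM use TMM-scaled library sizes. An SE is the size of the log2 fold change divided by the square root of F. The labels do not say whether replicates came from separate animals, so p-values measure only the spread between these libraries, which may be technical. They rest on 2 replicates per group and a spread pooled across genes (common biological coefficient of variation 4.09%). In counts simulated for this comparison (13580 genes), recovery was 29 of 50 genes for a 1.25-fold change, 42 of 50 for a 1.5-fold and 49 of 50 for a 2-fold change, and 2 of 172 calls were false. The simulation changed only genes at 1 CPM or more and gave every gene the common spread. It also changed a far smaller share than the 29.1% called in the data. Its rates therefore do not carry over to weaker genes or to genes of wider spread. DESeq2 1.42.0, other scalings and filters, a replicate block and leaving out each library were alternatives. Members, role groups and lists were chosen with earlier results of these data known. Full values are given for X-linked members, called members whose log2 fold change was 0.5 or more in size, the called member with the smallest p in each role group and 3 fixed pairs, and other called members were added after their values were seen. Up to 4 called genes are named per surrounding list, and Tex101 was named after its values were seen. An item on a surrounding list is not reported here and was left out of that list's counts.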

Additional observations from a re-analysis of the deposited data

How the results depend on the processing

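Of the 21 called members, 11 (9 higher, 2 lower) were called under all 11 alternative settings: Alg13, Piga, Ssr4, Alg10b, Ssr3, Ssr1, Pigg, Pigu and Mgat4d higher, Alg3 and Ganab lower. Members called lower numbered 5, but 8 under upper quartile scaling, 2 in DESeq2 and between 2 and 6 with 1 library left out. Surrounding genes called lower numbered 8, and 13 under upper quartile scaling. In sign, Stt3b read -0.0221 under upper quartile scaling, and Tusc3 ran from -0.0439 to 0.0188 with 1 library left out; neither was called. The cause was not tested. Replicate numbers are shared between groups, but same-numbered libraries did not deviate together (correlation 0.00985 across genes); with the replicate number as a block 16 members were higher and 4 lower, 20 of them shared with the 21, and Mgat4a lost its call (-0.72). Depth limits Alg14, Dpm3, Pigx, Mgat4c and Mgat4f, the 5 members under a mean of 1 CPM in both groups. No label gives a batch.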
